A study of Homo sapiens with 15 samples.

Results

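APAF1, CASP9 and 6 further genes of cell death linked to p53 were followed through all 15 libraries of an RNA-seq study of p53 constructs. The host was H1299, an established lung cancer line of human origin that makes no functional p53 of its own. The 8 genes, of 61552 gene IDs counted, were APAF1, CASP9, PIDD1, TP53INP1, TP53I3, TP53I11, AIFM2 and PERP. They were chosen by name, with earlier results of these data known. Each symbol matched 1 Ensembl ID, and all 8 passed the filter on low counts in both years. Cells overexpressed wild-type p53 (WT) or a control vector (Ctrl) in the 2023 data, and LLPSEp53_2, LLPSEp53_1 or p53 in the 2022 data, with 3 libraries per group. All groups share the H1299 background, and the labels give neither the vector nor how or for how long the constructs were delivered. No control vector of 2022 was analysed here, so a rise over control can be read in 2023 only. The series title places the LLPSEp53 constructs, named here as in the labels, in a study of how the phase separation propensity of p53 bears on its activity.

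In the mitochondrial route of apoptosis, cytochrome c leaves the mitochondria and binds APAF1, which assembles into a wheel-shaped complex, the apoptosome, that recruits and activates the initiator caspase CASP9. CASP9 then cleaves the executioner caspases. PIDD1 is the scaffold of a different platform, the PIDDosome, which activates caspase-2. TP53INP1, TP53I3 and TP53I11 are named for their induction by p53. TP53INP1 is a stress protein of the nucleus and of autophagosomes, TP53I3 (also called PIG3) is an oxidoreductase related to quinone reductases, and TP53I11 (PIG11) is a membrane protein. AIFM2, also known as FSP1, is an oxidoreductase of the AIF family that restrains ferroptosis, and PERP is a tetraspan membrane protein of cell junctions.

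A repeat of the letters TGTCC or TGCCC in the TP53I3 gene is a known p53 response element, so runs of these 5 letters were looked for in all GENCODE transcripts, on both strands. TP53I3 held a run of 15 in its first exon, in the 5′ untranslated region of the transcript TP53I3-201 (chr2:24084343-24084417, minus strand, GRCh38). TP53I11 held a run of 9 in the first exon of TP53I11-203, also 5′ untranslated (chr11:44950782-44950826, minus strand). Of 58676 genes searched, these were the 2 with a run of 9 or more (0.00341%). The longest run was 2 in TP53INP1 and 1 in each of the other 5 members, and a run of 2 or more was present in 5.3% of genes. The first 30 bases of each long run are shown because both genes rose with WT, with TGTCC in capitals and TGCCC in lower case.
TP53I3 (chr2:24084388-24084417): tgcccTGTCCTGTCCtgccctgcccTGTCC
TP53I11 (chr11:44950797-44950826): tgccctgccctgcccTGTCCtgccctgccc
The 30 bases held 3 copies of TGTCC in TP53I3 and 1 in TP53I11. A match is a description of the reference letters and not of binding or of the alleles of H1299.

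Promoter windows of RefSeq (build GRCh38.p14, 250 bases before to 50 after a start) were found for 7 members, 10 windows in all. The decamer p53 motif, read on both strands, was present without mismatch in 1 of the 10 windows, that of an upstream start of CASP9, against 6.63% of 35116 windows. It is shown because CASP9 is the member that fell with WT. The stretch shown lies outside annotated exons, with the decamer in capitals.
CASP9 (chr1:15524890-15525040, minus strand): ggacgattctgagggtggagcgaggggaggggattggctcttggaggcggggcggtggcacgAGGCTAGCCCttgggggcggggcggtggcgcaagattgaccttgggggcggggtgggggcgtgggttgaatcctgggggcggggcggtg
No window held 2 such decamers with up to 1 mismatch each and up to 13 bases between them, as did 1.84% of all windows, nor a run of 2 or more of the 5-letter repeats. These windows say nothing of sites further into the genes, such as the 2 repeats above.

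Total counts were 16208538 to 19228748 in 2023 and 13535397 to 16438272 in 2022. Levels are given as CPM (counts scaled to a common library size with TMM, within each year). The labels place p53 replicate 2 in a different batch. A batch term kept that library out of every group difference, so p53 is represented by 2 libraries. The epithelial keratin genes KRT8 and KRT18 were at 782 CPM or more in every library and VIM at 699.8 or more. CDH1, KRT19 and EPCAM did not exceed 1.66 CPM, nor SFTPC and SFTPB, markers of alveolar cells, 0.971 CPM, and the immune marker PTPRC had 0 counts in all libraries.

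WT raised 6 of the 8 genes and lowered 1. TP53I11 rose 8.76-fold, TP53INP1 3.86-fold, APAF1 3.44-fold, TP53I3 2.84-fold, PIDD1 1.89-fold and PERP 1.45-fold, whereas CASP9 was 1.48-fold lower and AIFM2 did not pass the test. A call is an adjusted p under 0.05 in edgeR's quasi-likelihood test over all 16156 genes, of which 4.12% were called, 3.24% higher and 0.873% lower. At least 2-fold changes were called for 4 members and 1.76% of genes. The members' 7 calls were made again without each library in turn. The calls over all genes were 665, and 356 without WT replicate 1, 369 without Ctrl replicate 3 and 1381 without Ctrl replicate 2. The lower calls, 141 in all, were 35 without WT replicate 1, 33 without WT replicate 3, 31 without Ctrl replicate 3 and 658 without Ctrl replicate 2, so the share beside the fall of CASP9 rests on single libraries. In all 8 genes the libraries of WT and Ctrl did not overlap, as in 22.4% of all genes. The members' median log2 change was 1.21, beside -0.0109 for all genes. The members were chosen with earlier results of these data known, and 3 are named for induction by p53. Their counts and median beside those of all genes are therefore no separate evidence. In RNA from bulk cells, fewer cells with a transcript and less of it per cell cannot be told apart.

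Within the apoptosome, adaptor and caspase moved in opposite directions. APAF1 (ENSG00000120868; GRCh38 chromosome 12, 98645141 to 98735433, plus strand) had 87.5, 70.0 and 69.2 CPM in WT libraries, against 25.5, 19.8 and 20.7 CPM in Ctrl libraries. The lowest WT library was well above the highest Ctrl library, and WT replicate 1 was the highest. The log2 change was 1.78 ± 0.13 (SE, n = 3 each, edgeR adjusted p = 8.07e-09). CASP9 (ENSG00000132906; chromosome 1, 15490832 to 15526534, minus strand) had 20.4, 19.96 and 22.2 CPM in WT libraries, against 31.3, 30.4 and 31.0 CPM in Ctrl libraries. Both groups were tight, with SDs of 1.17 and 0.448 CPM for WT and Ctrl, and no library of either entered the range of the other. The log2 change was -0.57 ± 0.12 (SE, n = 3 each, edgeR adjusted p = 0.00526), and 97.2% of genes had a higher log2 change.

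Set per length of merged exons, the order of the 2 genes differed between the groups. APAF1 stood at 9.55 ± 1.31 RPKM (CPM divided by length in kilobases) in WT and 2.78 ± 0.387 RPKM in Ctrl, and CASP9 at 3.96 ± 0.222 RPKM in WT and 5.87 ± 0.085 RPKM in Ctrl (SD, n = 3 each). The ratio of APAF1 to CASP9 was 2.86, 2.34 and 2.08 in WT libraries, against 0.542, 0.432 and 0.445 in Ctrl libraries. APAF1 was the more abundant of the pair per length in every WT library and the less abundant in every Ctrl library. An exact permutation test of the ratio, two-sided, gave p = 0.1, the smallest that 3 libraries against 3 allow. The groups already lay apart in both genes, in opposite directions, so this outcome was fixed before the test and adds no evidence.

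PIDD1 (ENSG00000177595; chromosome 11, 799179 to 809753, minus strand) had 35.4, 34.2 and 28.1 CPM in WT libraries, against 22.05, 15.6 and 14.1 CPM in Ctrl libraries. Ctrl replicate 1 was the highest of its group, and the lowest WT library remained above it. The log2 change was 0.92 ± 0.15 (SE, n = 3 each, edgeR adjusted p = 6.77e-04). Exons of PIDD1 share 107 bases with RPLP2 on the opposite strand, a gene with a median of 5485 counts per library against 355 for PIDD1, and because no source used here says whether counting kept strands apart, reads there cannot be assigned with certainty. Exons of APAF1 share 750 bases (9.5%) with ANKS1B on the opposite strand, where the partner is the weaker gene, with a median of 26 counts per library against 873 for APAF1.

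The 3 genes named for their induction by p53 gave 3 of the 4 largest log2 rises of the group. TP53INP1 (ENSG00000164938; chromosome 8, 94925972 to 94949411, minus strand) had 50.6, 44.4 and 45.1 CPM in WT libraries, against 10.5, 13.6 and 12.2 CPM in Ctrl libraries. Its log2 change was 1.95 ± 0.13 (SE, n = 3 each, edgeR adjusted p = 2.73e-09). TP53I3 (ENSG00000115129; chromosome 2, 24077433 to 24085861, minus strand) had 51.8, 50.2 and 52.3 CPM in WT libraries, against 19.3, 16.8 and 18.2 CPM in Ctrl libraries. The WT libraries of TP53I3 agreed within 1.09 CPM (SD), and the log2 change was 1.51 ± 0.11 (SE, n = 3 each, edgeR adjusted p = 2.08e-08). TP53I11 (ENSG00000175274; chromosome 11, 44885903 to 44951306, minus strand) had 41.7, 40.3 and 33.2 CPM in WT libraries, against 3.13, 5.68 and 4.29 CPM in Ctrl libraries. It was the least abundant member in Ctrl, with 53 to 101 counts per library, and its log2 change of 3.13 ± 0.18 (SE, n = 3 each, edgeR adjusted p = 2.12e-10) was exceeded by 0.353% of genes.

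The 2 most abundant members in Ctrl had the smallest log2 differences, which is not a ranking in CPM. PERP (ENSG00000112378; chromosome 6, 138088505 to 138107511, minus strand) had 128, 128 and 122 CPM in WT libraries, against 76.1, 94.7 and 89.2 CPM in Ctrl libraries. No WT library fell within the Ctrl range, and the log2 change was 0.54 ± 0.11 (SE, n = 3 each, edgeR adjusted p = 0.00385). AIFM2 (ENSG00000042286; chromosome 10, 70098223 to 70132934, minus strand) had 83.9, 89.2 and 88.8 CPM in WT libraries, against 65.8, 77.3 and 79.3 CPM in Ctrl libraries. The groups did not overlap, but the log2 difference of 0.23 had a 95% interval of 0.01 to 0.46 and did not pass the test (edgeR adjusted p = 0.24).

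**Figure D1:**
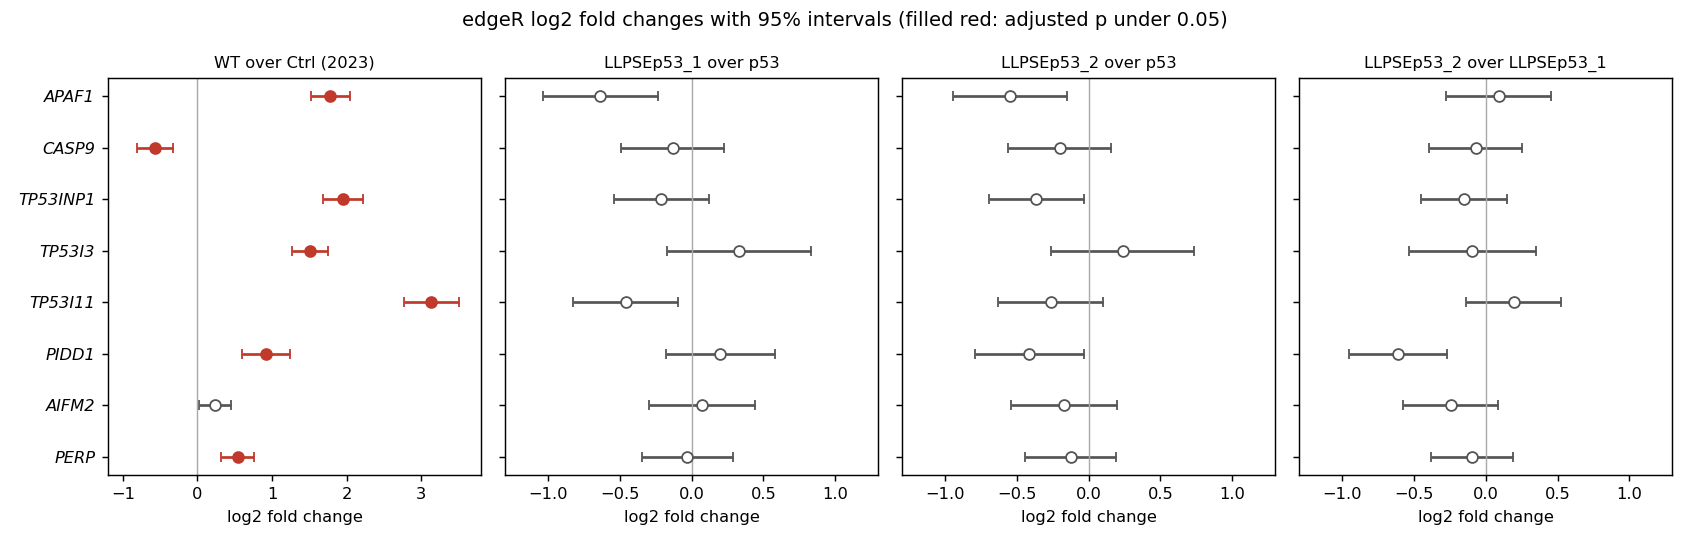
Log2 fold changes of the 8 genes with 95% intervals in the 4 comparisons, from edgeR. Filled red points are adjusted p under 0.05. The first panel has a wider axis than the other 3. With WT over Ctrl, 6 genes lie right of 0 and CASP9 left of it as called differences, and no gene is called in the 3 comparisons of 2022.

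Ranked per length, the members in WT ran from PERP (29.4 ± 0.722 RPKM) through TP53I3 (22.2 ± 0.473), AIFM2 (16.99 ± 0.574), APAF1 (9.55 ± 1.31), TP53INP1 (8.22 ± 0.598), PIDD1 (5.54 ± 0.670) and TP53I11 (5.23 ± 0.618) to CASP9 (3.96 ± 0.222 RPKM; SD, n = 3). The libraries of the neighbours APAF1 and TP53INP1 overlapped, as did those of PIDD1 and TP53I11. In Ctrl the order was PERP (20.2 ± 2.22 RPKM), AIFM2 (14.4 ± 1.41), TP53I3 (7.82 ± 0.554), CASP9 (5.87 ± 0.085), PIDD1 (2.94 ± 0.719), APAF1 (2.78 ± 0.387), TP53INP1 (2.13 ± 0.268) and TP53I11 (0.595 ± 0.174 RPKM; SD, n = 3), with overlapping libraries for PIDD1 and APAF1. With the length of the longest transcript in place of merged exons, AIFM2 came before PERP in Ctrl and before TP53I3 in WT. By that length TP53I11 averaged 10.4 RPKM in WT, against 5.23 by merged exons, and came before TP53INP1 and PIDD1. CASP9 stood last of the 8 in WT and the fourth in Ctrl by either length.

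Counts of called genes among the partners and relatives of the members are read against the 4.12% of all genes called with WT, and unadjusted counts against 8.94% higher and 9.22% lower. In a list of 16 apoptosome partners, executioner caspases and their inhibitors, 1 rose and 0 fell by edgeR and by DESeq2. At an unadjusted p below 0.05, 1 was higher and 1 lower, and the median log2 difference was 0.01. These counts are near the shares over all genes. The gene that rose was CASP6, an executioner caspase, at 19.6 ± 2.03 CPM in WT and 12.1 ± 1.27 CPM in Ctrl (SD, n = 3 each, log2 change 0.69, edgeR adjusted p = 0.00493). The list also held the mitochondrial protease HTRA2 (log2 difference -0.32, edgeR adjusted p = 0.133) and CYCS, which encodes cytochrome c (0.17, adjusted p = 0.462). Of 6 PIDDosome partners, 0 were called by edgeR or DESeq2, again near that share, with a median log2 difference of -0.14. ANKRD26, which encodes a centriole protein that recruits PIDD1, was the 1 gene higher at an unadjusted p below 0.05 (log2 difference 0.37, edgeR adjusted p = 0.139). CASP2, the caspase of that platform, had a log2 difference of -0.18 (adjusted p = 0.43).

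Of 20 close relatives of the members, 19 were tested and 0 were called by edgeR or DESeq2, which is near the 4.12% of all genes. At an unadjusted p below 0.05, 1 was higher, and the median log2 difference was 0.01. TP53INP2, the paralogue of TP53INP1, had 77.6 ± 4.26 CPM in WT and 79.7 ± 8.49 CPM in Ctrl (SD, n = 3 each). AIFM3 had the smallest adjusted p of the list (log2 difference 0.64, edgeR adjusted p = 0.265), followed by EMP3, a relative of PERP (-0.21, adjusted p = 0.39).

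Among 26 other genes linked to p53 and cell death, 23 were tested, and 13 rose and 0 fell by edgeR and by DESeq2. At an unadjusted p below 0.05, 15 were higher and 1 lower, and the median log2 difference was 0.39. Over all genes tested, 3.24% were called higher and 0.873% lower by edgeR, and 8.94% were higher and 9.22% lower unadjusted. The list was chosen for links to p53, so its count is no separate evidence. The smallest adjusted p values were those of ZMAT3, an RNA-binding protein gene (log2 change 1.38), RNF144B, a ubiquitin ligase gene (1.40), BBC3, which encodes the BH3-only protein PUMA (0.86), and TRIAP1 (0.85). These edgeR adjusted p values lay between 4.2e-06 and 6.79e-05. The 3 untested genes were PRODH, TP53AIP1 and PYCARD, which did not pass the filter on low counts.

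In 2022, none of the 8 genes passed the test between constructs. The background was low: 0.888% of 17459 genes were called between LLPSEp53_1 and p53, 1.93% between LLPSEp53_2 and p53 and 0.372% between LLPSEp53_2 and LLPSEp53_1. For the members, edgeR and DESeq2 called 0 in each. At unadjusted p under 0.05, 2 were lower in LLPSEp53_1 than in p53 (APAF1 and TP53I11), 3 lower in LLPSEp53_2 than in p53 (APAF1, TP53INP1 and PIDD1) and 1 lower in LLPSEp53_2 than in LLPSEp53_1 (PIDD1). Over all genes, 7.34%, 7.94% and 4.5% were lower at that threshold in the same 3 comparisons. The first 2 comparisons share the p53 libraries, so their values are given side by side only.

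APAF1 had 50.9, 56.5 and 63.0 CPM in LLPSEp53_2 libraries and 62.2, 58.2 and 39.8 CPM in LLPSEp53_1 libraries, against 87.9 and 78.2 CPM in p53 replicates 1 and 3. Every LLPSEp53 library was below both p53 libraries, and the LLPSEp53 groups overlapped each other. The log2 difference was -0.55 (95% interval -0.95 to -0.15, edgeR adjusted p = 0.198) for LLPSEp53_2 against p53 and -0.64 (-1.04 to -0.24, adjusted p = 0.173) for LLPSEp53_1 against p53. The second passed without LLPSEp53_1 replicate 1 (adjusted p = 0.0456) with no filter on low counts (0.0233) and with the GC trend of each library removed (0.045), and the first without LLPSEp53_1 replicate 3 (0.0211) and with only its 2 groups in the fit (0.0174). Over all alternatives the adjusted p ranged from 0.0174 to 0.659 for the first and from 0.0233 to 0.502 for the second. Groups that did not overlap made up 33.1% of genes for LLPSEp53_2 against p53 and 26.9% for LLPSEp53_1 against p53.

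CASP9 varied less, at 17.9, 18.7 and 15.1 CPM in LLPSEp53_2 libraries and 16.8, 17.8 and 19.7 CPM in LLPSEp53_1 libraries, against 18.7 and 21.0 CPM in p53 replicates 1 and 3. All 3 groups overlapped, with log2 differences against p53 of -0.20 (95% interval -0.56 to 0.16) for LLPSEp53_2 and -0.13 (-0.49 to 0.23) for LLPSEp53_1. Per length, APAF1 was above CASP9 in all 9 libraries of 2022, with mean ratios of 2.23 ± 0.481 in LLPSEp53_2 and 1.999 ± 0.584 in LLPSEp53_1 (SD, n = 3 each), against 2.81 ± 0.464 in p53 (SD, n = 2). Exact permutation tests, two-sided, gave p = 0.3 for LLPSEp53_2 and p = 0.2 for LLPSEp53_1 against p53, where 0.1 is the smallest possible.

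PIDD1 gave the largest log2 difference between the LLPSEp53 constructs among the members. It had 16.7, 18.3 and 15.1 CPM in LLPSEp53_2 libraries, against 23.1, 23.8 and 29.7 CPM in LLPSEp53_1 libraries, with 19.7 and 24.8 CPM in p53 replicates 1 and 3. LLPSEp53_2 lay below both other groups with no overlap, a separation shared by 13% of genes for LLPSEp53_2 against LLPSEp53_1. The log2 difference was -0.61 (95% interval -0.96 to -0.27, edgeR adjusted p = 0.188), and it passed once the trend of each library with GC content was removed (adjusted p = 0.0282), over a range of 0.0282 to 1 in all alternatives. Against p53 the log2 differences were -0.41 (-0.79 to -0.03, edgeR adjusted p = 0.34) for LLPSEp53_2 and 0.20 (-0.18 to 0.58) for LLPSEp53_1.

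Of the genes named for induction by p53, TP53INP1 had 49.7, 53.6 and 59.8 CPM in LLPSEp53_2 libraries and 64.9, 62.7 and 53.6 CPM in LLPSEp53_1 libraries, against 76.1 and 63.8 CPM in p53 replicates 1 and 3. The log2 differences against p53 were -0.36 (95% interval -0.69 to -0.03, edgeR adjusted p = 0.332) for LLPSEp53_2 and -0.21 (-0.54 to 0.12, adjusted p = 0.555) for LLPSEp53_1. TP53I11 had 22.01, 27.3 and 22.1 CPM in LLPSEp53_2 libraries and 23.4, 19.0 and 20.001 CPM in LLPSEp53_1 libraries, against 25.8 and 31.3 CPM in p53 replicates 1 and 3. Only LLPSEp53_1 did not overlap p53, and the log2 differences were -0.26 (-0.63 to 0.10) for LLPSEp53_2 and -0.46 (-0.82 to -0.09, edgeR adjusted p = 0.282) for LLPSEp53_1. TP53I3 had 33.2, 30.8 and 26.1 CPM in LLPSEp53_2 libraries and 25.2, 26.7 and 44.2 CPM in LLPSEp53_1 libraries, against 23.1 and 27.9 CPM in p53 replicates 1 and 3. LLPSEp53_1 replicate 3 was far above the other 2 of its group, and the log2 differences of 0.24 (-0.26 to 0.74) for LLPSEp53_2 and 0.33 (-0.17 to 0.83) for LLPSEp53_1 lay above 0 and did not pass.

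LLPSEp53_1 replicate 3 had the highest TP53I3, PIDD1, AIFM2 and CASP9 of its group and the lowest APAF1 and TP53INP1. Replicate 1 of that group was the highest or lowest library in every member, so these positions alone do not set replicate 3 apart. Over 16396 to 16590 genes, the counts of replicate 3 differed more from the other 2 than those 2 from each other. Chi-square per degree of freedom was 48.0 for replicates 1 and 3 and 25.8 for 2 and 3, against 13.5 for 1 and 2. Without LLPSEp53_1 replicate 3, the log2 difference of APAF1 between LLPSEp53_1 and p53 was -0.46 (edgeR adjusted p = 0.186). That of TP53I3 between LLPSEp53_2 and LLPSEp53_1 was then 0.21, against -0.09 with that library kept. PERP and AIFM2 gave the smallest log2 differences between constructs and p53. PERP had 159.8, 158 and 171 CPM in LLPSEp53_2 libraries and 161, 189 and 173 CPM in LLPSEp53_1 libraries, against 200.4 and 155 CPM in p53 replicates 1 and 3. AIFM2 had 51.0, 47.4 and 39.8 CPM in LLPSEp53_2 libraries and 46.7, 52.5 and 64.6 CPM in LLPSEp53_1 libraries, against 54.5 and 49.4 CPM in p53 replicates 1 and 3. For both genes the p53 libraries overlapped both other groups, and the 95% intervals of the log2 differences against p53 reached from -0.54 to 0.44.

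Between the LLPSEp53 constructs the 7 members other than PIDD1 had log2 differences from -0.25 to 0.20, with edgeR adjusted p from 0.794 to 0.951. In the lists, 1 gene was called by edgeR in 2022. RNF144B had 13.01 ± 2.94 CPM in LLPSEp53_2 and 38.7 ± 7.38 CPM in LLPSEp53_1 (SD, n = 3 each), against 17.1 ± 1.96 CPM in p53 (SD, n = 2). It was higher in LLPSEp53_1 than in p53 (log2 change 1.18, edgeR adjusted p = 0.0287) and lower in LLPSEp53_2 than in LLPSEp53_1 (-1.57, adjusted p = 0.0034). DESeq2 called RNF144B in the same 2 comparisons, and also PMAIP1, the BH3-only gene NOXA, between the LLPSEp53 constructs (log2 difference -0.76, edgeR adjusted p = 0.0615).

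The p53 library from the other batch differed by gene. In p53 replicate 2, PIDD1 was 3.45 times the mean of p53 replicates 1 and 3, TP53I11 2.83 times, APAF1 2.37 times, TP53INP1 1.85 times and TP53I3 1.64 times. PERP was 1.20 times that mean, AIFM2 1.15 times and CASP9 0.925 times. Across 12367 genes the median of this ratio was 1.003, and 8.6% of genes reached at least 2. The member with the steepest rise in WT, TP53I11, came second here and PIDD1 first. The other batch is this single library, so batch and library cannot be told apart, and no test was made. With that library counted in the p53 group and no batch term, the log2 difference of LLPSEp53_2 from p53 was -1.27 for PIDD1, -1.09 for APAF1 and -0.95 for TP53I11, and that of LLPSEp53_1 was -1.18 for APAF1 and -1.14 for TP53I11. None of these passed, with edgeR adjusted p of 0.113 to 0.213.

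**Figure D2:**
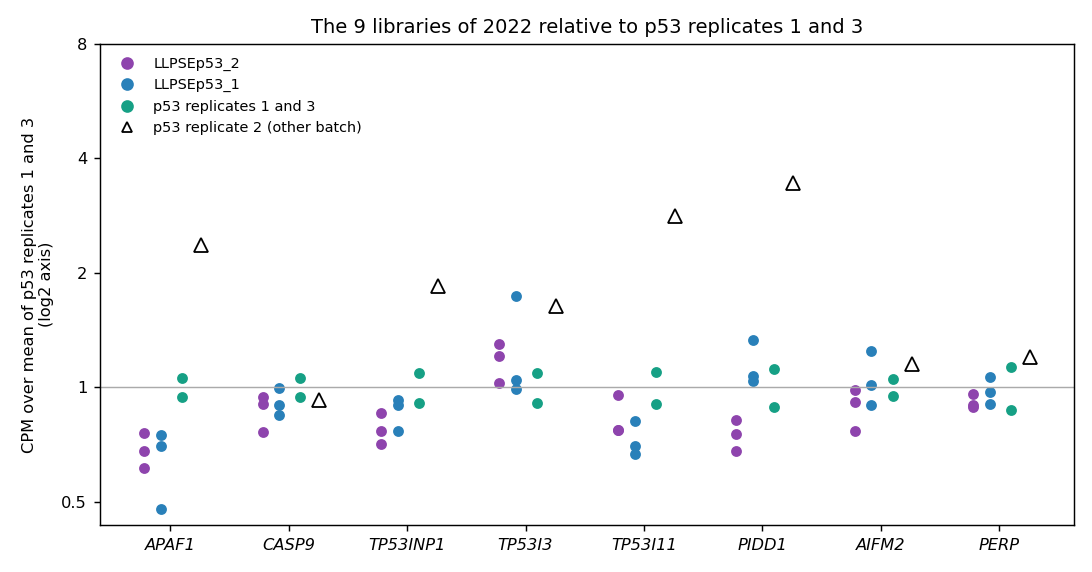
CPM of each of the 9 libraries of 2022 divided by the mean of p53 replicates 1 and 3, on a log2 axis for the 8 genes. The open triangle is p53 replicate 2, which lies at 2.37 or more for APAF1, TP53I11 and PIDD1 and at 0.925 for CASP9.

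The genes most like each member were taken by Pearson correlation of log2 CPM over the 15 libraries after centring within each year, among 11641 genes. The points share libraries and groups, and WT and Ctrl lie apart, so the values only describe. TP53INP1 was closest to CYFIP2 (0.985) and MDM2 (0.980), TP53I11 to EFNB1 (0.983) and TP53INP1 (0.975), and PIDD1 to HOXC13 (0.975) and RRAD (0.972). APAF1 was closest to PLCXD2 and SUSD6 (0.967 each), PERP to BRMS1L (0.937) and MGME1 (0.930), and TP53I3 to RGS16 (0.928). CASP9 was closest to RHBDD2 (0.872) and MUL1 (0.863), and AIFM2 to WIPI2 (0.861) and PITPNC1 (0.840). Within the 9 libraries of 2022 the likeness of TP53I3 to RGS16 was 0.688, and that of TP53I11 to EFNB1 0.993. That of CASP9 was 0.709 to RHBDD2 and 0.574 to MUL1, and the other pairs named lay between 0.869 and 0.991. The values of 2022 include p53 replicate 2, which can raise them, and were not computed without it. Over both years without that library, TP53I11 and EFNB1 had 0.989 and TP53I3 and RGS16 0.924.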

How the data were processed

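Total RNA was isolated with Trizol and libraries were made with an Illumina-compatible kit, per the labels' protocols. The submitters' processing notes name Trimmomatic 0.39, STAR 2.7.10a and GRCh38. The counting tool and its annotation are not named in those notes or in the labels. Each deposited file holds raw counts of reads per Ensembl gene, which the authors did not normalise. LLPSEp53_1 columns lack the construct number and were assigned by sample title. Symbols were found for 61399 of 61552 IDs, and positions, lengths and transcripts came from GENCODE 29.

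Counts were fitted in R 4.3.3 with edgeR 4.0.16 (TMM, filterByExpr, quasi-likelihood test, Benjamini-Hochberg adjustment over all genes). WT and Ctrl were fitted on 6 libraries and the groups of 2022 on 9, with a term for the other batch. SEs came from the fold change and its F statistic, and CPM and RPKM were scaled within a year, so levels are not compared across years. Whether replicates are independent cultures is not stated, and p-values reflect the spread of these libraries, which may be technical. Between replicates, chi-square per degree of freedom was 7.46 to 128, so none counted as duplicates. A count of 0 allows up to 3 counts, 0.156 to 0.222 CPM, which covers counting error only. The scripts were tested on simulated data.

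The members and lists were chosen with earlier results of these data known. All members are named, with up to 2 most similar genes each, and up to 4 genes per list with the smallest adjusted p with WT, and list genes called in 2022. Some results that this rule would name are not reported here. TP53INP2, PMAIP1 and LLPSEp53_1 replicate 3 were singled out after their values were seen. Alternatives were DESeq2 1.42.0, RLE and upper-quartile scaling, no filter, each library left out, the replicate number as a block, a 2-fold minimum, no batch term, only the groups compared, the length of the longest transcript and, added after seeing the data, removal of each library's GC trend.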

Additional observations from a re-analysis of the deposited data

Results flagged for a closer look

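APAF1, TP53INP1, TP53I11, PIDD1 and PERP stood higher in p53 replicate 2, the library of the other batch that enters no comparison, than in any of the other 8 libraries of 2022. PERP was at 214 CPM there, against 155 to 200.4 CPM in the others, and APAF1 at 197 CPM, against 39.8 to 87.9 CPM. TP53INP1 was at 129 CPM, against 49.7 to 76.1 CPM, TP53I11 at 80.7 CPM, against 19.0 to 31.3 CPM, and PIDD1 at 76.7 CPM, against 15.1 to 29.7 CPM. The gap was wide for PIDD1 and TP53I11 and narrow for PERP. How many of all genes were highest in this library was not counted, so the number of members is not read as a result about them. The ratio of this library to the mean of p53 replicates 1 and 3 was higher than that of PERP in 34.2% of genes. For TP53INP1 that share was 10.8%, for APAF1 4.93%, for TP53I11 2.95% and for PIDD1 1.73%. CASP9, AIFM2 and TP53I3 lay within the range of the other libraries. No control vector of 2022 was analysed here, and these values were not tested.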

How the results depend on the processing

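With WT, the 7 called members kept their direction and passed in each of 12 alternatives, and AIFM2 passed in none; a 2-fold minimum left 4 members and 285 genes. The replicate block called 1645 genes with WT, 40 for LLPSEp53_1 and 183 for LLPSEp53_2 against p53, and 33 between the LLPSEp53 constructs. Same-numbered libraries did not deviate together in every pair, so the numbers are not taken to pair samples. For WT and Ctrl the correlations of replicates 1 to 3 were 0.2, 0.427 and 0.0373. With another number they reached at most 0.00347, -0.0357 and 0.268. Between the LLPSEp53 constructs the same-numbered correlations were -0.674, -0.257 and -0.691, and those with another number reached 0.635, 0.151 and 0.628. The source of these shared deviations was not tested. Leaving out 1 library gave 356 to 1381 genes with WT, always with 7 members.

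For LLPSEp53_1 against p53, genes called were 258 with DESeq2, 562 with no filter, 94 with no batch term, 64 with only the groups compared and 248 with the GC trend removed. Members called were 1 (APAF1) with no filter and with the GC trend removed. Leaving out 1 library gave 0 to 568 genes and 0 to 1 members; the 0 came without p53 replicate 3 in edgeR, where 890 genes were higher and 744 lower at an unadjusted p below 0.05. PIDD1 turned to -0.66 with no batch term and PERP to 0.0098 with the GC trend removed. Over the left-out libraries PERP ranged from -0.20 to 0.17 and AIFM2 from -0.064 to 0.17.

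For LLPSEp53_2 against p53, genes called were 823 with no filter, 1040 with only the groups compared, where 1 member (APAF1) passed, and 549 with the GC trend removed. Leaving out 1 library gave 93 to 928 genes and 0 to 1 members. With no batch term TP53I3 turned to -0.040, PIDD1 was -1.27 against -0.41 and TP53I11 -0.95 against -0.26, and PERP ranged from -0.30 to 0.073 over the left-out libraries.

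Between the LLPSEp53 constructs, genes called were 151 with DESeq2, 235 with no filter, 3 with no batch term, 35 with only the groups compared and 104 with the GC trend removed, where 1 member (PIDD1) passed. Leaving out 1 library gave 21 to 198 genes and 0 members. Over the left-out libraries APAF1 ranged from -0.089 to 0.21, CASP9 from -0.15 to 0.015 and TP53I3 from -0.24 to 0.21. Allowing 1 mismatch to the decamer raised the promoter windows with a match to 3 of 10, against 45.1% of all windows. The cause of these changes was not tested. With p53 at 2 libraries, the intervals of the members' differences are wide, and a difference that did not pass is not shown to be absent.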

Other observations

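Runs of the letters TGTCC or TGCCC were set beside the response to WT for all tested genes, a look chosen after the values were seen. Of 1882 tested genes whose transcripts held a run of 2 or more, 64 (3.4%) were higher and 39 (2.07%) lower with WT, beside 3.24% and 0.873% of all genes tested, with a median log2 change of -0.09. Of 51 with a run of 3 or more, 4 (7.84%) were higher and 1 (1.96%) lower, with a median of -0.155. Of 5 with a run of 5 or more, 2 were higher, and these were TP53I3 and TP53I11. The median over all genes tested was -0.0109, and the 2 longest runs came with log2 changes of 1.51 for TP53I3 and 3.13 for TP53I11. These counts describe the genes and are not a test.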
